A study of Homo sapiens with 6 samples.

Results

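The genes described here are the transcriptional coactivators YAP1 and WWTR1 (whose protein is called TAZ), the DNA-binding factors TEAD1, TEAD2, TEAD3 and TEAD4, and the target genes CCN1, CCN2, ANKRD1 and AMOTL2. Their probes were found through the transcript accession that the array files give for each probe, matched to a RefSeq gene table, in which CCN1 and CCN2 replace the older names CYR61 and CTGF. All 10 genes were found among the 20503 genes that could be named, each with 1 probe, and all 10 probes passed the filter on dim probes (3 or more of the 6 arrays had to detect a probe well above background). The YAP1 probe was printed in 10 spots on each array and the other probes in 1 spot.

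RNA came from A673 cells, a cell line from Ewing sarcoma, a bone and soft tissue tumor driven by an EWS/FLI1 fusion protein. In A673/TR cells the tetracycline repressor (TR) silences an inserted cDNA until doxycycline is added. A673/TR/LOX-PP cells carry, in a doxycycline-inducible lentiviral vector, the cDNA of the propeptide region of lysyl oxidase, and A673/TR/empty cells, the control, carry that vector without a cDNA. The study selected stable clones with zeocin and went on with those of highest mRNA or protein expression upon doxycycline, so that an effect of the propeptide and a difference between separately selected cells cannot be told apart. The labels give doxycycline (1 uM, 72 h) for all 6 samples, while the methods name it for A673/TR/LOX-PP in a sentence that can be read with or without the control, so the state of the controls is unclear. Each group had 3 arrays, from separate experiments, and the comparison asks which transcripts differ between the LOX-PP cells and the control cells.

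LOX itself has 1 probe, and it did not set the labels apart in the direction of an induction. Its log2 signal over the 75th percentile of each array came to -0.09, 0.36 and 0.11 on control arrays and -0.12, -0.68 and -1.29 on the arrays labelled A673/TR/LOX-PP (adjusted p = 0.217, limma with Benjamini-Hochberg adjustment). Whether this probe lies in the propeptide cDNA is not stated by the files. All directions below therefore rest on the labels, and "LOX-PP arrays" means the arrays labelled A673/TR/LOX-PP. All 6 Ewing sarcoma cell markers were above background on every array and none passed the threshold. Of 5 fibroblast markers, 4 had changes below the median of all tested probes and 1 above it. COL1A2 and LUM passed as lower, where LUM was well above background on 2 control arrays and 1 LOX-PP array. COL3A1 (-1.49, adjusted p = 0.0793, limma) and DCN (-0.80, adjusted p = 0.542, limma) did not pass. The summed log2 level of the list was 5.31 to 5.50 on control arrays and 3.53 to 3.998 on LOX-PP arrays. The fall of the sum came from COL1A2, with a mean log2 signal of 5.16 on control arrays and 2.25 on LOX-PP arrays, while COL1A1 had a change of 0.53 (adjusted p = 0.175), with no overlap of the groups. The part of these differences in the results below was not tested. The summed levels of blood (-0.94 to 0.14), endothelial (-2.19 to -0.96) and epithelial (-3.70 to -2.26) markers were low in both groups. By the brightest probe of each gene, 4 of 4 blood markers, 2 of 3 endothelial and 1 of 3 epithelial markers were above background on every array. Of the other probes of the blood marker PTPRC, 1 was above background on 1 LOX-PP array and the rest on no array.

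YAP1 and TAZ are coactivators without a DNA-binding domain of their own. The Hippo pathway, a chain of kinases that responds to cell contact, polarity and tension, phosphorylates them and keeps them in the cytoplasm. When it is inactive they enter the nucleus and bind TEAD factors, which recognize the letters CATTCC, read as GGAATG on the other strand. CCN1, CCN2, ANKRD1 and AMOTL2 are among the genes most often used as readouts of this binding. Most of the control of YAP1 and TAZ acts on the protein, which arrays of mRNA do not measure.

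The letters of the TEAD motif were looked for in the 250 bases before the start site, in the RefSeq promoter table (build GRCh38.p14), which holds 7 of the 10 genes. TEAD1, TEAD4 and CCN1 have no entry, while WWTR1, TEAD2 and AMOTL2 have 2 entries each. The motif was found on either strand in 4 of the 7 genes, compared with 14.3% of the 27305 genes of the table, and in 4 of their 10 windows, compared with 11.9% of all 35116 windows. CCN2 held 3 copies, starting 169, 104 and 95 bases before the start site, ANKRD1 held 2 (220 and 128 bases), YAP1 held 1 (162 bases) and AMOTL2 held 1, in 1 of its 2 entries (69 bases). The other targets listed below held it in 7 of 16 genes with an entry. The windows of the target genes are shown because they hold these letters next to the genes that serve as readouts, with the motifs in capitals. In ANKRD1 the capitals also mark TGATTCA, 195 bases before the start. It matches TGANTCA, the letters looked for as an AP-1 motif, in which N is any base. Such a match was present in 6.57% of all windows.
CCN2, chr6:131951373-131951622, minus strand: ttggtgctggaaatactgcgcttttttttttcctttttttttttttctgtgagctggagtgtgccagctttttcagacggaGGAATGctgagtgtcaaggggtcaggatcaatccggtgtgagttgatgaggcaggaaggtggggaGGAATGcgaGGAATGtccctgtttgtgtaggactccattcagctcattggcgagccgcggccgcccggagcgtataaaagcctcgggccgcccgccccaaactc
ANKRD1, chr10:90921088-90921337, minus strand: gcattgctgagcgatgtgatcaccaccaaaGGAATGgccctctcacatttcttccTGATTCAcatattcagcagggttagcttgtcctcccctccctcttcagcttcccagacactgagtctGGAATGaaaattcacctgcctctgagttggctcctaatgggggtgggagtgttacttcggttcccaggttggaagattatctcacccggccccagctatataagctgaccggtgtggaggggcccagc
AMOTL2, chr3:134374448-134374697, minus strand: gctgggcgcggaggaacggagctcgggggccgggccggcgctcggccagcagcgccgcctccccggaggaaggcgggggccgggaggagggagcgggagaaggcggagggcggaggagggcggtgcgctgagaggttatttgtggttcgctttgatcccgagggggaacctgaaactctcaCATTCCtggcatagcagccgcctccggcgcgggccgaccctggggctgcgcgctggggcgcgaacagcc
The letters TATAAA, a form of the TATA box, lie 32 bases before the start of CCN2 (6.8% of all windows). Only these exact letters were looked for, so other forms of the TATA box, in ANKRD1 or elsewhere, are not marked. The GGAATG copies of CCN2 and ANKRD1 and the CATTCC copy of AMOTL2 face opposite ways relative to the start site. A match of letters is a description and says nothing on binding in these cells, and no match says only that these letters are not in this window.

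**Figure D1:**
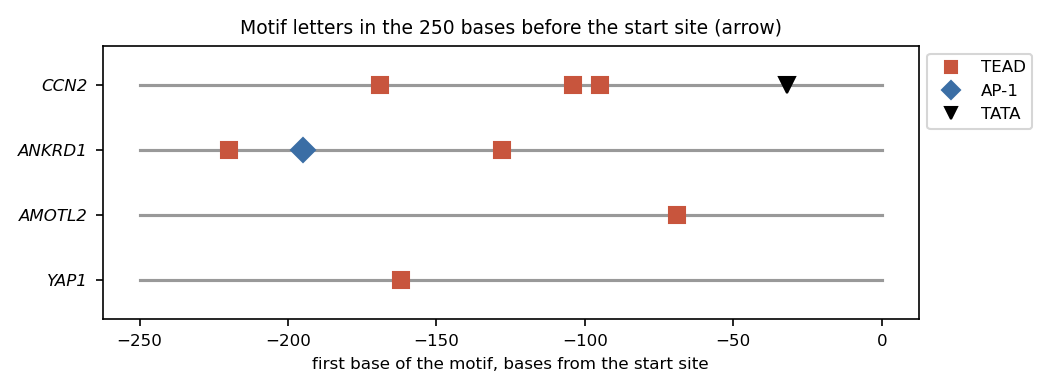
Positions of TEAD, AP-1 and TATA motif letters in the 250 bases before the start site (x axis, bases from the start site, which the arrow marks) in 4 genes. CCN2 has 3 TEAD motifs, ANKRD1 has 2, and AMOTL2 and YAP1 have 1 each.

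Of the 10 genes, 7 had changes below the median of all tested probes and 3 above it. Their median change was -0.85 on the log2 scale, compared with -0.09 over all 16601 named genes tested. TEAD4 alone passed the threshold, a Benjamini-Hochberg adjusted p under 0.05 over all tested probes (1 of 10 probes), where 5.66% of all 32647 tested probes did so, and 2.36% did so in the lower direction. The groups did not overlap for 8 of the 10 genes (6 lower, 2 higher on the LOX-PP arrays), compared with 29.4% of all tested probes, and 8 of 10 did not overlap after quantile normalization either. At an unadjusted p under 0.05, limma passed 7 of the 10 probes and 21.3% of all tested probes. Changes are LOX-PP arrays minus control arrays, given relative to the median change of all tested probes, which was 0.13 (-0.03 with quantile normalization). The adjusted p tests the change before that median is subtracted. In RNA of whole cultures, fewer cells with a transcript and less of it per cell cannot be told apart.

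**Figure D2:**
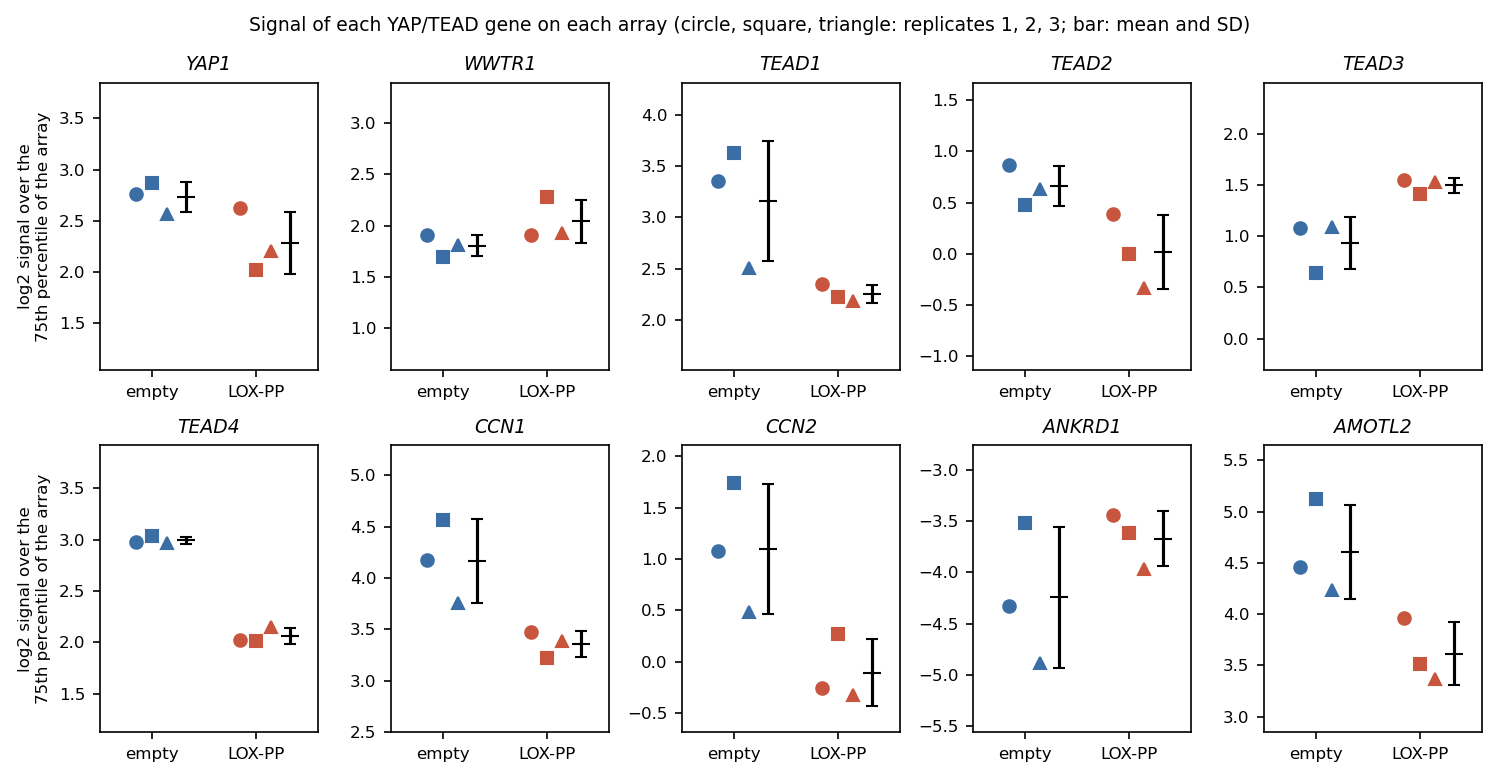
Log2 signal over the 75th percentile of the array (y axis) for each gene on the 3 control arrays (blue, empty) and the 3 LOX-PP arrays (orange), with mean and SD beside them. Every y axis spans the same range, so that slopes can be compared, and levels cannot be compared between genes. The TEAD4 values lie between 2.97 and 3.03 on the control arrays and between 2.01 and 2.15 on LOX-PP arrays.

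Neither coactivator passed the threshold. YAP1 had a log2 signal of 2.77, 2.86 and 2.57 on control arrays and of 2.62, 2.02 and 2.21 on LOX-PP arrays. The groups overlapped, since LOX-PP replicate 1 lay above control replicate 3, while LOX-PP replicates 2 and 3 lay below all controls. The change was -0.58 ± 0.24 (SE; 95% confidence interval -1.15 to -0.0053; adjusted p = 0.333, limma). The SD over its 10 spots was at most 0.075 on any array, smaller than the SD between arrays of 0.15 (control) and 0.31 (LOX-PP). WWTR1, which encodes TAZ, gave 1.91, 1.70 and 1.81 on control arrays and 1.91, 2.28 and 1.93 on LOX-PP arrays. These groups touch, since the lowest LOX-PP array and the highest control array both round to 1.91. Its change was 0.11 ± 0.22 (95% confidence interval -0.40 to 0.62; adjusted p = 0.577, limma), and it turned to -0.067 without the filter on dim probes.

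Of the TEAD factors, TEAD4 passed the threshold, TEAD1 and TEAD2 had negative changes that did not pass, and TEAD3 had a positive change that did not pass. TEAD4 was 2.98, 3.03 and 2.97 on control arrays and 2.02, 2.01 and 2.15 on LOX-PP arrays. The spread within each group (SD 0.035 and 0.079, n = 3) was small beside the gap, and TEAD4 fell by 1.06 ± 0.19 (SE; 95% confidence interval -1.52 to -0.61), or 2.09-fold, with an adjusted p of 0.0398 (limma). Tested probes of like signal, in the same 1 of 10 brightness groups, had a median change of -0.25. The call held in 8 of 15 alternative settings, with changes from -1.24 to -0.80. It was lost when control replicate 1 (adjusted p = 0.211), 2 (0.186) or 3 (0.104) or LOX-PP replicate 2 (0.0984) or 3 (0.0747) was left out, and also with the replicate block (0.125) or without the filter on dim probes (0.156).

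TEAD1, the family member that many tissues express widely, had 3.35, 3.63 and 2.50 on control arrays and 2.35, 2.22 and 2.19 on LOX-PP arrays. Control replicate 3 stood close to the LOX-PP arrays and the other controls stood well above them. Its change was -1.03 ± 0.32 (95% confidence interval -1.79 to -0.27), close to that of TEAD4, and it did not pass (adjusted p = 0.167, limma). The control SD was 0.59. Without control replicate 3 the change was -1.43 (adjusted p = 0.0584).

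TEAD2 had 0.87, 0.48 and 0.63 on control arrays and 0.39, -0.0045 and -0.34 on LOX-PP arrays. Every LOX-PP array was below every control, and the change was -0.77 ± 0.26 (adjusted p = 0.219, limma). TEAD3 had 1.08, 0.64 and 1.09 on control arrays and 1.54, 1.42 and 1.52 on LOX-PP arrays. All LOX-PP arrays lay above all controls, and the change was 0.43 ± 0.22 (95% confidence interval -0.09 to 0.96; adjusted p = 0.210, limma). TEAD1, TEAD2 and TEAD4 had negative changes and TEAD3 a positive change in all 15 alternative settings, scalings included. The difference between TEAD3 and the other family members was not tested.

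**Figure D3:**
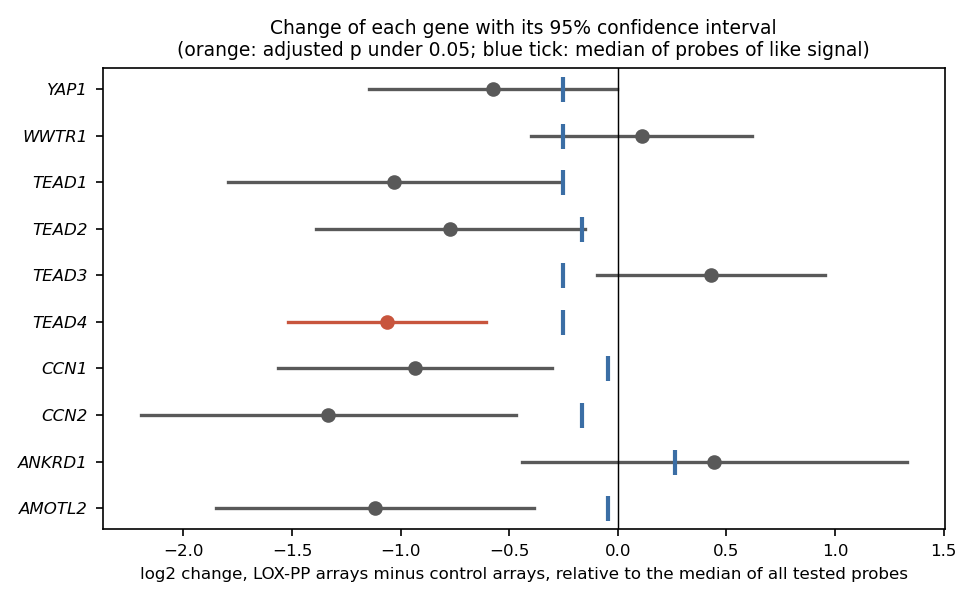
Log2 change of each gene, LOX-PP arrays minus control arrays, relative to the median of all tested probes (x axis), with the 95% confidence interval. The interval of TEAD4, in orange, runs from -1.52 to -0.61, and blue ticks give the median change of probes of like signal.

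The target genes CCN1, CCN2 and AMOTL2 were each lower on all LOX-PP arrays than on all control arrays, without passing the threshold. CCN2, also called connective tissue growth factor, is a secreted matricellular protein, and its promoter holds the 3 TEAD motifs shown above. It had 1.08, 1.74 and 0.48 on control arrays and -0.26, 0.27 and -0.32 on LOX-PP arrays. The distance between control replicate 3 and LOX-PP replicate 2 was the smallest, and the control arrays spread widely (SD 0.63). The change was -1.33 ± 0.36 (SE; 95% confidence interval -2.20 to -0.47), or 2.52-fold lower, with an adjusted p of 0.115 (limma). Leaving out control replicate 2 gave -0.95, and leaving out control replicate 3 gave -1.71.

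CCN1, a secreted protein of the same family, had 4.18, 4.57 and 3.75 on control arrays and 3.47, 3.22 and 3.38 on LOX-PP arrays. The LOX-PP arrays lay close together (SD 0.13) below a wider control group (SD 0.41). Its change was -0.94 ± 0.27 (95% confidence interval -1.57 to -0.30; adjusted p = 0.142, limma). AMOTL2, an angiomotin family protein that binds YAP1 and holds it back, had 4.46, 5.12 and 4.23 on control arrays and 3.96, 3.51 and 3.37 on LOX-PP arrays. All LOX-PP arrays lay below the lowest control, and the change was -1.12 ± 0.31 (95% confidence interval -1.85 to -0.39; adjusted p = 0.124, limma). Tested probes as bright as those of CCN1 and AMOTL2 had a median change of -0.05, and those as bright as that of CCN2 one of -0.17.

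ANKRD1, an ankyrin repeat protein of muscle and stressed cells, was close to the detection limit. Its probe was well above background on 2 of 3 arrays in each group, with -4.33, -3.52 and -4.88 on control arrays and -3.44, -3.62 and -3.96 on LOX-PP arrays. The groups overlapped, and the change of 0.44 ± 0.37 (adjusted p = 0.430, limma) ran beside a median of 0.27 for probes equally dim. The 95% confidence interval of ANKRD1, from -0.44 to 1.33, includes changes of either sign.

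The control arrays deviated from each other in a shared way. In 7 of the 10 genes (YAP1, TEAD1, TEAD4, CCN1, CCN2, ANKRD1 and AMOTL2) control replicate 2 was the highest and control replicate 3 the lowest control array, an order found in 17.5% of all tested probes. The genes are therefore not independent replicates of each other. Of the 10 genes, none but TEAD4 passed the threshold in any of the alternative settings. LOX-PP replicate 1 was on another slide and scan than the other 5 arrays. With the slide as a block, which is the same as leaving that array out, TEAD4 had -1.08 (adjusted p = 0.0457), CCN2 -1.29 (0.157), AMOTL2 -1.33 (0.0832) and YAP1 -0.78 (0.125).

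**Figure D4:**
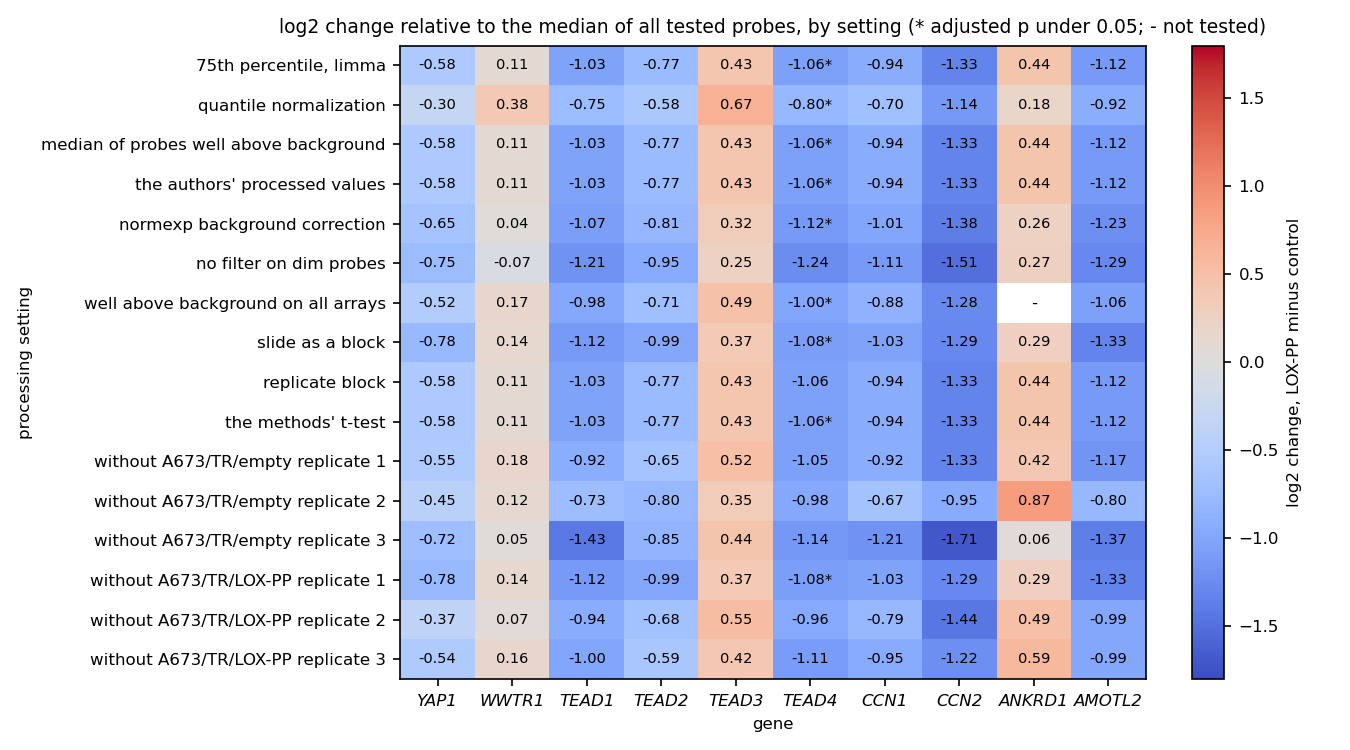
Log2 change of the 10 genes, relative to the median of all tested probes, in each processing setting (rows); colour gives the change, and a star marks an adjusted p under 0.05. TEAD4 has the only stars, and CCN1, CCN2, AMOTL2, TEAD1, TEAD2 and YAP1 are negative in every row.

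Around these genes, 70 other genes of the Hippo pathway and other target genes were listed, 60 of which had a tested probe. Of these, 11 passed the threshold (8 lower, 3 higher), or 11 of 60 genes, where 7.07% of all named genes passed and 3.37% passed as lower. The brightest probe of a gene was used. The higher calls include FOXF2, whose probe passed the filter on dim probes only through the LOX-PP arrays. The median change of the 60 genes was -0.47, with 40 below and 20 above the median of all tested probes, where 9379 of the 16601 named genes lay below it. The lists were chosen with results of these data known, so the counts describe these genes and are not a test of the pathway. Without control replicate 1 (adjusted p from 0.0667 to 0.243) or control replicate 2 (from 0.0612 to 0.209), 10 of the 11 calls were lost and AMOT alone passed.

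Among the 19 Hippo kinases and their adaptors, 2 passed as lower by the brightest probe and none as higher. Of all named genes, 3.37% passed as lower. The median of the list was -0.34, with 12 genes below and 7 above the median of all tested probes. STK3, the kinase MST2 that phosphorylates LATS kinases, had 2.83, 3.05 and 2.77 on control arrays and 1.36, 1.62 and 1.71 on LOX-PP arrays. These values did not overlap, and STK3 fell by 1.45 ± 0.22 (SE; adjusted p = 0.0191, limma), a call also lost without LOX-PP replicate 2 (0.0563). MAP4K4, which acts beside MST kinases on LATS, fell by 1.19 ± 0.23 (adjusted p = 0.0475, limma), a call that held in 4 of 15 alternative settings and was lost without any 1 array, with an adjusted p of 0.0628 to 0.243. The LATS kinases, named here after their values were seen, inhibit YAP1 and TAZ directly. LATS2, itself also a known YAP1 target, had 1.03, 1.52 and 0.75 on control arrays and -0.42, 0.20 and -0.03 on LOX-PP arrays (adjusted p = 0.0665). It passed in 1 of 15 alternative settings, with only probes well above background on all arrays tested (-1.25, adjusted p = 0.0427, limma). LATS1 had a change of 0.26 (adjusted p = 0.542). The 559 named genes tested on chromosome 8, which holds STK3 and DLC1, had a median change of -0.42, and the 285 on chromosome 13, which holds LATS2, one of -0.82. The 1004 on chromosome 11, which holds YAP1, TEAD1, FJX1 and AMOTL1, had one of -0.27, where all named genes had -0.09. Their part in the changes of these genes was not tested.

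The membrane and junction regulators had 4 called genes (3 lower, 1 higher) among 18 tested of 22, with a median of -0.60. Of all named genes, 7.07% passed and 3.37% passed as lower. AMOT, the founding angiomotin and a relative of AMOTL2, binds YAP1 at junctions and actin. Its brighter probe had 0.50, 0.39 and -0.42 on control arrays and -3.49, -3.57 and -3.33 on LOX-PP arrays, the largest fall among the 60 tested genes of the lists. AMOT fell by 3.75 ± 0.29 (SE; adjusted p = 0.00168, limma), or 13.5-fold, and passed in 15 of 15 alternative settings, with changes from -4.10 to -3.31. Its dimmer probe was well above background on 2 control arrays and on no LOX-PP array and could not be tested, with a bound of at least 2.19-fold lower. AMOTL1, the family's other member, had a change of -0.58 (adjusted p = 0.416). All 3 angiomotin genes had negative changes, of which AMOT alone passed.

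FJX1, a secreted kinase related to the fly protein that modifies Fat and Dachsous cadherins, was bright, with 4.63, 4.69 and 4.20 on control arrays and 3.57, 3.17 and 2.83 on LOX-PP arrays. FJX1, which is also counted among the other target genes, fell by 1.45 ± 0.28 (adjusted p = 0.0416, limma). The FJX1 call was also lost without control replicate 3 (0.0604), LOX-PP replicate 2 (0.100) or LOX-PP replicate 3 (0.0943). CRB2, an apical polarity protein, rose by 1.37 ± 0.30 (adjusted p = 0.0371, limma), with 1 of 3 control arrays and 2 of 3 LOX-PP arrays well above background. The CRB2 call was lost with normexp background correction (0.62, adjusted p = 0.145) and with quantile normalization (adjusted p = 0.248), and without control replicate 3 (0.100), LOX-PP replicate 2 (0.0992) or 3 (0.0928).

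VGLL proteins bind TEAD factors in place of YAP1. VGLL3 had 0.67, 1.22 and -0.52 on control arrays and -0.55, -0.80 and -1.75 on LOX-PP arrays for its brighter probe, a change of -1.61 (adjusted p = 0.159), whereas the value of its other probe was -0.22 (adjusted p = 0.840). VGLL4, which represses TEAD targets, had a change of -0.15 (adjusted p = 0.975) by its brighter probe, which was 0.12 with quantile normalization. Its dimmer probe had a change of the opposite sign, 0.45, that did not pass (adjusted p = 0.156, limma), with no overlap of the groups. VGLL1 and VGLL2 were above background on too few arrays to be tested. Of the other CCN genes, CCN3 had a change of 0.67 (adjusted p = 0.254), with -3.24, -2.47 and -3.65 on control arrays and -2.28, -2.01 and -2.67 on LOX-PP arrays. CCN4, CCN5 and CCN6 were not well above background on any array.

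The other YAP1 and TAZ target genes went both ways, with 4 called lower and 2 higher of 23 tested, and a median of -0.23. Among the 16601 named genes tested, 7.07% passed, with 559 lower and 615 higher. NT5E, the surface enzyme CD73 that makes adenosine, had 1.18, 1.36 and 1.05 on control arrays and -1.19, -0.45 and -0.71 on LOX-PP arrays. NT5E fell by 2.11 ± 0.26 (adjusted p = 0.00896, limma), and its second probe fell by 1.33 (adjusted p = 0.0311). MYOF, a membrane repair protein, fell by 1.54 ± 0.27 (adjusted p = 0.0316, limma), while its dimmer probe did not pass (adjusted p = 0.381). DLC1 fell by 1.33 ± 0.24 (adjusted p = 0.0385, limma) by its brighter probe, and its dimmer probe had a value of the opposite sign, 1.05, that did not pass (adjusted p = 0.130). MYOF and DLC1 were also lost without LOX-PP replicate 1 (0.0523 and 0.0574), 2 (0.086 and 0.0866) or 3 (0.0793 and 0.0805).

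The risen targets were dim on the control arrays. FOXF2, a forkhead transcription factor, was well above background on all LOX-PP arrays and on none of the control arrays. Its probe thus passed the filter on dim probes only through the LOX-PP arrays, so its call is no independent support for a rise. FOXF2 was at least 6.81-fold higher. That bound compares the LOX-PP mean with the lowest signal counted as well above background on each control array, or the probe's signal if higher. The adjusted p of 0.0195 (limma) belongs to a log2 change of 3.04, which has no measured control level behind it. AREG, a ligand of the epidermal growth factor receptor, had -5.76, -6.26 and -4.34 on the control arrays, 1 of which was above background, and -3.10, -3.45 and -2.87 on LOX-PP arrays. AREG rose by 2.18 ± 0.49 (adjusted p = 0.0441, limma), a call lost with quantile normalization (0.0569). With normexp background correction AREG had 1.15 (adjusted p = 0.101) and FOXF2 1.44 (adjusted p = 0.0648), so that with CRB2 all 3 higher calls of the lists were lost. FOXF2 was also lost without LOX-PP replicate 2 (0.0644) or 3 (0.053), and AREG without LOX-PP replicate 1 (0.0776), 2 (0.0899) or 3 (0.115). Probes of 1 gene also disagreed for MOB1B, TAOK3 and DOCK5, which are named because a dimmer probe passed (adjusted p = 0.0282, higher, 0.0463, lower, and 0.0241, lower) while the brightest did not (0.540, 0.0912 and 0.641).

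**Figure D5:**
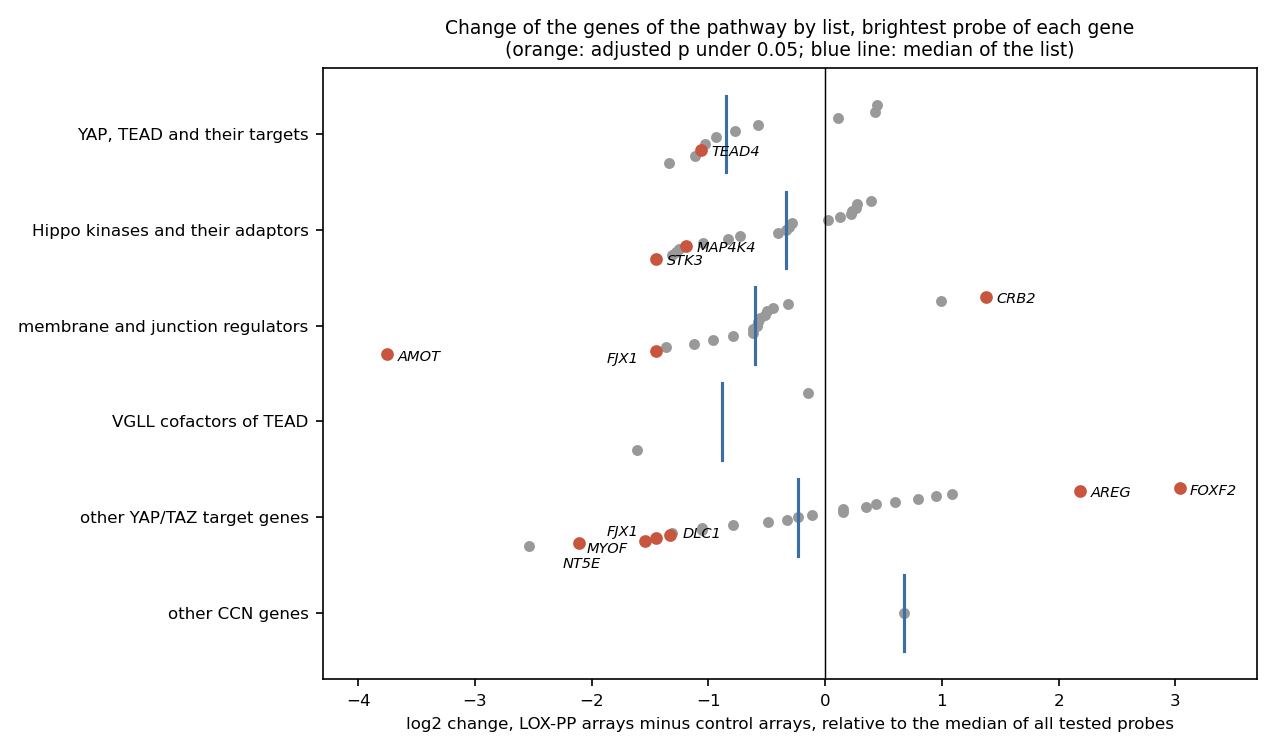
Log2 change of the brightest probe of each tested gene, LOX-PP arrays minus control arrays, relative to the median of all tested probes (x axis), by list (y axis), with 1 called gene of the membrane and junction regulators not shown. Orange points passed an adjusted p under 0.05, blue lines are list medians, and the size of the FOXF2 point has no measured control level behind it. AMOT lies farthest to the left at -3.75, and the other YAP/TAZ target genes spread to both sides.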

How the data were processed

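RNA of 3 A673/TR/empty and 3 A673/TR/LOX-PP samples was hybridised to Agilent SurePrint G3 60K v2 arrays in 1 colour (Cy3). The authors deposited spot intensity from Feature Extraction (version 10.7 in the submitters' processing notes), with a background-corrected signal and flags, and a table of log2 values. The methods do not name the normalization; the deposited log2 values equalled those used here, after centring each probe, within 0.00537.

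Control and outlier spots were left out, log2 intensity was averaged over the spots of each of 50599 probes, and each array was scaled by subtracting its 75th percentile. The 32647 probes that 3 or more of the 6 arrays detected well above background were tested with limma (version 3.58.1, R 4.3.3) at a Benjamini-Hochberg adjusted p under 0.05. Genes were named through RefSeq (28174 probes). The limma fit was tested on simulated arrays with independent noise for each probe. That simulation does not cover deviations shared by the probes of an array. Between 56.9% and 74.8% of gene spots were well above background, and 3 arrays per group limit the precision.

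Named are the 10 genes, the genes of each list whose brightest probe passed (at most 6), the VGLL and other CCN genes, and LOX. LATS1, LATS2, AMOTL1, MOB1B, TAOK3, DOCK5 and the markers COL1A1, COL3A1, DCN and PTPRC are also named, outside that rule. 1 called gene of the lists is in the counts but not reported here. The members and lists were chosen with earlier results of these data known. Alternatives were quantile normalization, the median of detected probes, the authors' values, normexp, other filters, slide and replicate blocks, the methods' t-test, the mean of a gene's probes and leaving out each array.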

Additional observations from a re-analysis of the deposited data

How the results depend on the processing

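The number of YAP/TEAD genes past the threshold, 1 in the reported fit, was 0 without the filter on dim probes, 0 with the replicate block and 0 to 1 when single arrays were left out, where only omitting LOX-PP replicate 1 kept it at 1. Of the 60 listed genes, 11 passed, compared with 7 with normexp, 16 with the mean of a gene's probes, 2 without the filter, 4 with the replicate block, 2 by the methods' t-test and 1 to 8 when single arrays were left out (1 without control replicate 1 or 2, 2 without LOX-PP replicate 2, 3 without LOX-PP replicate 3). Of all probes, 1849 passed, compared with 516 without the filter, 860 with the replicate block, 569 by the methods' t-test and 407 to 2062 when single arrays were left out (407 and 444 without control replicates 1 and 2, 892 and 1037 without LOX-PP replicates 2 and 3). The cause was not tested. Signs of the brightest probe turned for WWTR1 (-0.067 without the filter), LATS1 (-0.10 with the slide as a block, and -0.10 to 0.53 when single arrays were left out), MOB1B (-0.051 without control replicate 1 to 0.45 without control replicate 2) and VGLL4 (0.12 with quantile normalization). None of these probes passed in any setting, while a dimmer probe of MOB1B passed in the reported fit (adjusted p = 0.0282, limma). Same-numbered arrays did not all deviate together (r = 0.27, -0.39 and 0.23 across probes for numbers 1, 2 and 3). Not every array correlated best with its own number. With 3 arrays per group, these values cannot decide whether same-numbered samples were paired. Results with the replicate block are therefore given beside those of the fit without it. Dim probes, such as those of ANKRD1, CRB2, FOXF2 and AREG, have the least certain changes.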
